A study of Oryctolagus cuniculus with 4 samples.

Results

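The genes examined here encode the enzymes that prepare and form the covalent crosslinks of collagen. They were all genes of the deposited table whose symbol was LOX, LOXL1, LOXL2, LOXL3, LOXL4, PLOD1, PLOD2 or PLOD3. All 8 symbols had an entry, giving 5 lysyl oxidases and 3 lysyl hydroxylases among 20294 genes. RNA came from intact semitendinosus tendons, the hamstring tendon harvested to rebuild ligaments. The donors were 4 female rabbits of the New Zealand White breed, 193 days old. Each rabbit gave 1 tendon, no animal was treated, and all 4 tendons formed a single group. The series title uses the word allograft and the design text the word autograft, while the sample descriptions call the tendons intact. Muscle was scraped from the tendon surface before freezing, and polyadenylated RNA was sequenced.

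Lysyl hydroxylases work inside the cell. They add a hydroxyl group to selected lysines of newly made procollagen, and where that hydroxyl group sits helps decide which crosslink can form later. Lysyl oxidases are secreted copper-dependent amine oxidases that convert lysine and hydroxylysine at the ends of collagen molecules, and lysine in elastin, to reactive aldehydes. The aldehydes then react with neighbouring chains, which gives tendon fibrils their tensile strength.

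The 4 tendons had between 19759696 and 30646052 estimated counts, with tendon 1 the shallowest. Each of the 8 genes was represented by 1 transcript and passed the filter of at least 1 CPM (counts scaled to equal library totals) in at least 2 tendons, as did 12744 genes in all. The tendon markers MKX, TNMD and THBS4 were present in every tendon, while SCX and COMP had no entry. Skeletal muscle RNA was also present. Of 6 muscle markers, 5 had an entry, and their summed level was 4435, 18961, 8917 and 11499 TPM in tendons 1 to 4. The unit TPM is an abundance corrected for transcript length and scaled to a common total, so that different genes can be compared.

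LOX, the founding lysyl oxidase, stood far above the other members. Its level was 1535, 817, 721 and 644 TPM in tendons 1 to 4, averaging 929 ± 410 TPM (SD, n = 4). Tendon 1 was high, at 2.38 times tendon 4, and the other 3 tendons lay within a factor of 1.27 of each other. LOX was the 87th most abundant of 13225 named genes by mean TPM. The gene (ENSOCUG00000003313.3) lies on the minus strand of OryCun2.0 chromosome 3, 6327805 to 6342408, with an annotated transcript of 4779 bases. Between 51691 and 73302 counts per tendon supported these values, so the exact 95% Poisson interval of the lowest count reached less than 1% to either side, from -0.860% to 0.866%.

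LOXL2 was the next most abundant oxidase. It carries scavenger receptor cysteine-rich domains ahead of the catalytic domain and is known to crosslink basement membrane collagen IV. Its level was 347, 331, 191 and 312 TPM in tendons 1 to 4, with a mean of 295 ± 71.3 TPM (SD, n = 4). Tendon 3 was low and the other 3 tendons lay within a factor of 1.11. LOXL2 (ENSOCUG00000014596.3) spans 80664 bases of an unplaced scaffold. Its estimated counts were whole numbers in 1 of 4 tendons and those of LOXL3 in 2, while the other 6 members had whole numbers in all 4.

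LOXL3, a relative of LOXL2 with the same domain plan, had 294, 207, 147 and 130 TPM, a mean of 194 ± 74.3 TPM (SD, n = 4). Its tendons stood in the same order as those of LOX, with tendon 1 highest and tendon 4 lowest. LOXL3 (ENSOCUG00000027040.2, chromosome 2, 111989886 to 112008287, plus strand) overlaps 250 bases of DOK1 on the other strand. The use of strand in counting was not given in the sources used here. DOK1 had between 619 and 1346 counts, against 6673 to 10835 for LOXL3, and both genes had counts that were not whole in tendons 1 and 4 only.

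The remaining oxidases were lower than LOX, LOXL2 and LOXL3 by mean TPM. Among 13225 named genes LOXL1 ranked 1204th and LOXL4 1882nd. LOXL1, the member best known for elastic fibre assembly, had 69.4, 65.2, 74.7 and 137 TPM, a mean of 86.5 ± 33.6 TPM (SD, n = 4). Here tendon 4 was high and the other 3 were close together, the reverse of LOX. LOXL1 (ENSOCUG00000000978.2) lies on an unplaced scaffold and shares 12628 bases of its span with an unnamed gene on the same strand, which had 35 to 117 counts against 1337 to 4425 for LOXL1. LOXL4, the last of the scavenger receptor type oxidases, had 78.5, 46.9, 56.9 and 46.1 TPM, a mean of 57.1 ± 15.1 TPM (ENSOCUG00000004988.3, chromosome 18, 46350107 to 46364856). Tendon 1 was the highest for LOXL4 too.

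Among the hydroxylases, PLOD2 led. It encodes lysyl hydroxylase 2, which modifies the telopeptide lysines from which hydroxylysine-derived crosslinks form. Its level was 347, 264, 215 and 267 TPM in tendons 1 to 4, with a mean of 273 ± 54.3 TPM (SD, n = 4; ENSOCUG00000001461.3, chromosome 14, 39741113 to 39840641). Tendon 1 was the highest and tendon 3 the lowest. A single PLOD2 transcript was listed, so splice forms of this gene could not be told apart.

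PLOD1 encodes lysyl hydroxylase 1, which acts on lysines of the collagen triple helix. It had 213, 142, 166 and 188 TPM, a mean of 177 ± 30.4 TPM (SD, n = 4; ENSOCUG00000007960.3, on an unplaced scaffold). Its highest tendon was again tendon 1, and its lowest was tendon 2. PLOD3 encodes lysyl hydroxylase 3, which also adds sugars to hydroxylysine and is known for its part in basement membrane collagen. It had 54.4, 61.7, 54.1 and 61.0 TPM, a mean of 57.8 ± 4.11 TPM (ENSOCUG00000021812.1, on an unplaced scaffold). The 4 tendons differed by 1.14 times at most, the narrowest range of the 8 genes. The lowest PLOD3 count was 949, with an exact 95% Poisson interval from 890 to 1011, or -6.26% to 6.57%. These intervals cover counting error only.

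**Figure D1:**
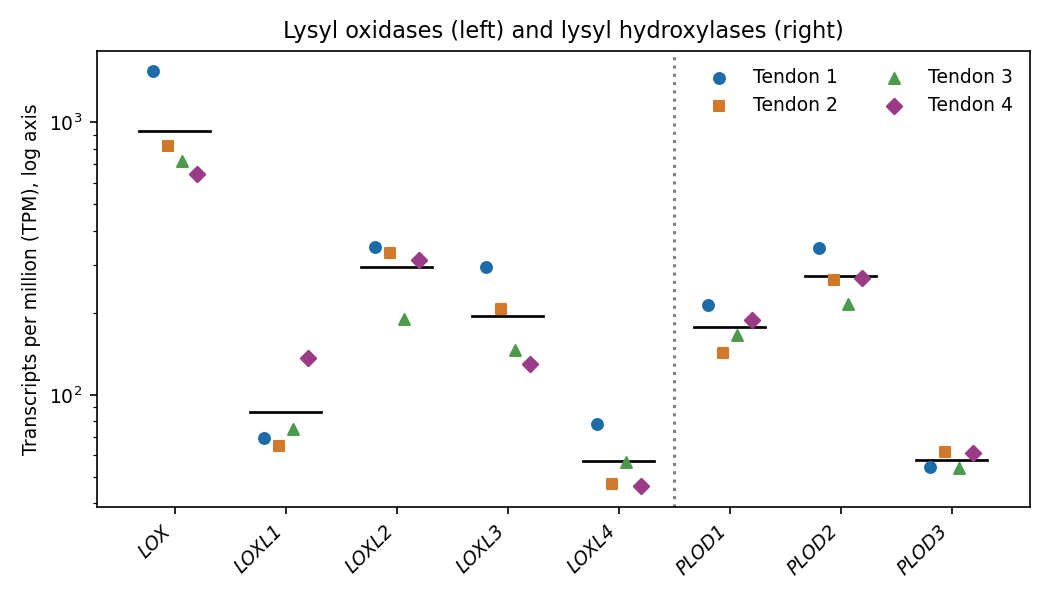
Level of each lysyl oxidase (left of the dotted line) and lysyl hydroxylase (right) in TPM on a log axis; points are tendons 1 to 4 and bars are means of 4. LOX lay between 644 and 1535 TPM, above every value of the other 7 genes, whose highest was 347 TPM.

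By mean TPM the order was LOX, LOXL2, PLOD2, LOXL3, PLOD1, LOXL1, PLOD3 and LOXL4. LOX was first in all 4 tendons and its lowest tendon (644 TPM) stood above the highest tendon of LOXL2 (347 TPM). LOXL2 and PLOD2 did not differ beyond their spread: their tendons overlapped, and LOXL2 was the higher in 3 of 4. PLOD2 exceeded LOXL3 in 4 of 4 tendons, by 1.18 to 2.06 times, although the ranges over tendons overlapped. LOXL3 and PLOD1 overlapped, with LOXL3 the higher in 2 of 4 tendons. PLOD1 exceeded LOXL1 in all 4, with ranges that did not overlap, 142 TPM at the lowest against 137 TPM at the highest. LOXL1 lay above PLOD3 without overlap, at 65.2 TPM against 61.7 TPM at the nearest points. PLOD3 and LOXL4 overlapped and each was the higher in 2 tendons. These near ties depended on the length correction. In CPM, LOXL4 was above PLOD3 in every tendon, at 91.8, 60.5, 73.8 and 59.7 against 48.0, 60.1, 53.0 and 59.6. LOXL3 was then above PLOD1 in every tendon but tendon 4, where they had 222 and 259 CPM.

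As families, the oxidases took a larger part of the RNA than the hydroxylases. The 5 oxidases took 0.232% of TPM in tendon 1, 0.147% in tendon 2, 0.119% in tendon 3 and 0.127% in tendon 4, with a mean of 0.156% ± 0.0521 (SD, n = 4). The 3 hydroxylases took 0.0614%, 0.0468%, 0.0436% and 0.0516%, a mean of 0.0509% ± 0.00778. The oxidase sum was 3.78, 3.14, 2.73 and 2.46 times the hydroxylase sum, so both families had their highest share in tendon 1 and the gap was widest there. Without length correction the mean shares were 0.365% of counts for the oxidases and 0.0938% for the hydroxylases.

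The makeup of the oxidase family differed between tendons. LOX supplied 66.0%, 55.7%, 60.6% and 50.8% of oxidase TPM in tendons 1 to 4. LOXL2 supplied 14.9%, 22.6%, 16.0% and 24.6%. LOXL1 supplied 2.99% in tendon 1 and 10.8% in tendon 4, a 3.61-fold difference. LOXL3 supplied between 10.2% and 14.1%, and LOXL4 between 3.20% and 4.78%. Among hydroxylases, PLOD2 supplied 56.4%, 56.4%, 49.4% and 51.8%, PLOD1 between 30.4% and 38.2%, and PLOD3 between 8.85% and 13.2%.

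Ratios within a tendon do not depend on the scaling between tendons, and 12 of 14 planned ratios could be formed. COLGALT1 and ELN had no entry. For each of the 12 ratios, the 4 tendons fell on the same side of 1. The exact two-sided permutation test over all 16 sign patterns then gives p = 0.13 (adjusted p = 0.13), the smallest value possible with n = 4, so none could reach 0.05. LOX exceeded LOXL1 22.1-, 12.5-, 9.65- and 4.71-fold in tendons 1 to 4, with a mean log2 ratio of 3.41 ± 0.93 (SD, n = 4). That 4.69-fold spread was the widest of the 12 ratios. LOX exceeded LOXL2 4.42-, 2.47-, 3.78- and 2.06-fold (mean log2 ratio 1.60 ± 0.51). LOX exceeded LOXL4 12.7- to 19.6-fold.

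The ratio of LOX to LOXL3 was narrow in comparison. It was 5.22, 3.94, 4.92 and 4.96 in tendons 1 to 4 (mean log2 ratio 2.24 ± 0.18, SD, n = 4), although each gene differed more than 2-fold between tendons. Across the 28 pairs of the 8 genes, LOX with LOXL3 had the smallest distance between their patterns over tendons, 0.155 on the log2 scale. The widest distances were those of LOXL1 with LOXL3, 0.810, and LOXL1 with LOX, 0.797. Distance here is the root mean square difference over the 4 tendons of log2(TPM + 1) after each gene was centred on its own mean.

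Among hydroxylases, PLOD1 stood at 0.616, 0.539, 0.773 and 0.703 times PLOD2 (mean log2 ratio -0.62 ± 0.23, SD, n = 4). PLOD2 exceeded PLOD3 6.37-, 4.27-, 3.98- and 4.38-fold, and PLOD1 exceeded PLOD3 between 2.30- and 3.92-fold. LOX exceeded PLOD2, the hydroxylase with the highest level, 4.43-, 3.10-, 3.34- and 2.41-fold. Without length correction all 12 ratios kept their side of 1, but their sizes depended on it: the geometric mean of LOX to LOXL1 was 10.6 in TPM and 26.3 in CPM, that of PLOD1 to PLOD2 0.652 and 0.369, and that of PLOD2 to PLOD3 4.67 and 11.6. Annotated transcripts of the 8 genes ran from 1746 bases (PLOD3) to 4888 bases (LOXL2), and whether each is complete was not tested.

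**Figure D2:**
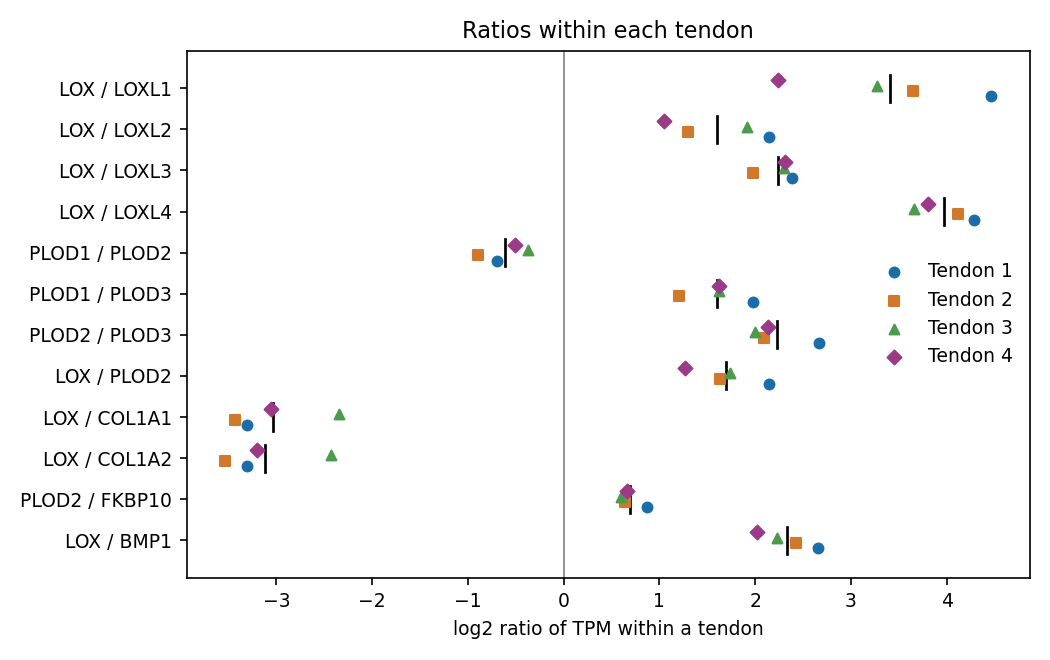
Log2 ratio of TPM within each tendon (points) for 12 pairs of genes, with the mean of 4 as a bar and the line at 0 marking equal levels. LOX to LOXL1 ran from 4.47 in tendon 1 to 2.24 in tendon 4, while LOX to LOXL3 stayed between 1.98 and 2.38.

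The spread between tendons was set beside that of all genes tested. The highest tendon was at least 2 times the lowest for 3 of 8 members, LOX (2.38-fold), LOXL3 (2.26-fold) and LOXL1 (2.10-fold), against 20.9% of 12744 genes. With TMM scaling, which aligns the tendons on the bulk of their genes, 2 of 8 members passed, against 19.1% of genes. LOX had 2.37-fold, LOXL3 2.25-fold and LOXL1 1.98-fold on that scale. The median range was 1.76-fold for the 8 members and 1.44-fold for all genes tested. All genes tested include those just past the 1 CPM filter, whereas the lowest mean of a member was 55.2 CPM (PLOD3). When genes had to average 10 CPM or more, 11.1% had a 2-fold range in place of 20.9%. That lower figure is the closer background for the members. The 20.9% and 1.44-fold given beside the partner lists are those of all genes tested, not matched for level. By the SD of log2 TPM, LOX stood at the 86.6th percentile of genes tested, LOXL3 at the 85.0th and LOXL1 at the 82.6th. LOXL2 stood at the 75.4th, LOXL4 at the 70.5th, PLOD2 at the 59.4th, PLOD1 at the 53.2nd and PLOD3 at the 12.9th. These percentiles were taken in TPM alone, and the range of PLOD3 was 1.14-fold in TPM and 1.29-fold with TMM scaling.

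Ranges were also taken with single tendons left out, which can only keep or narrow a range. Without tendon 1, 1 of 8 members passed 2-fold (LOXL1), against 13.4% of genes, and the range of LOX was 1.27-fold and that of LOXL3 1.60-fold. Without tendon 4, 2 of 8 passed (LOX at 2.13-fold and LOXL3 at 2.01-fold), against 14.8% of genes, and the range of LOXL1 was 1.15-fold. The range of LOXL2 was 1.82-fold with all tendons and 1.11-fold without tendon 3. LOXL1 in tendon 4 stood apart by Dixon's ratio (0.867, past the 95% critical value), 1 of 8 members against 6.1% of genes tested, and did not on the log2 scale (0.817).

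The highest tendon was tendon 1 for 6 of 8 members in TPM, against 38.9% of genes tested, and for 5 of 8 with TMM scaling, against 30.9%. LOX, LOXL3, LOXL4, PLOD1 and PLOD2 were highest in tendon 1 on both scales. LOXL2 was highest in tendon 1 in TPM and in tendon 2 with TMM scaling. The median of all genes tested differed by 0.18 on the log2 scale between tendons in TPM, being lowest in tendon 2, and by 0.0030 with TMM scaling. Relative to the bulk of genes, LOX had 3834, 2320, 1865 and 1619 TMM-normalised CPM and kept its order, while LOXL1 had 69.9, 74.7, 77.9 and 139. The edgeR biological coefficient of variation, which is shrunk toward that of genes of like level, was 0.333 for LOX, 0.322 for LOXL3, 0.285 for LOXL1 and 0.169 for PLOD3, against a median of 0.205 over genes tested.

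**Figure D3:**
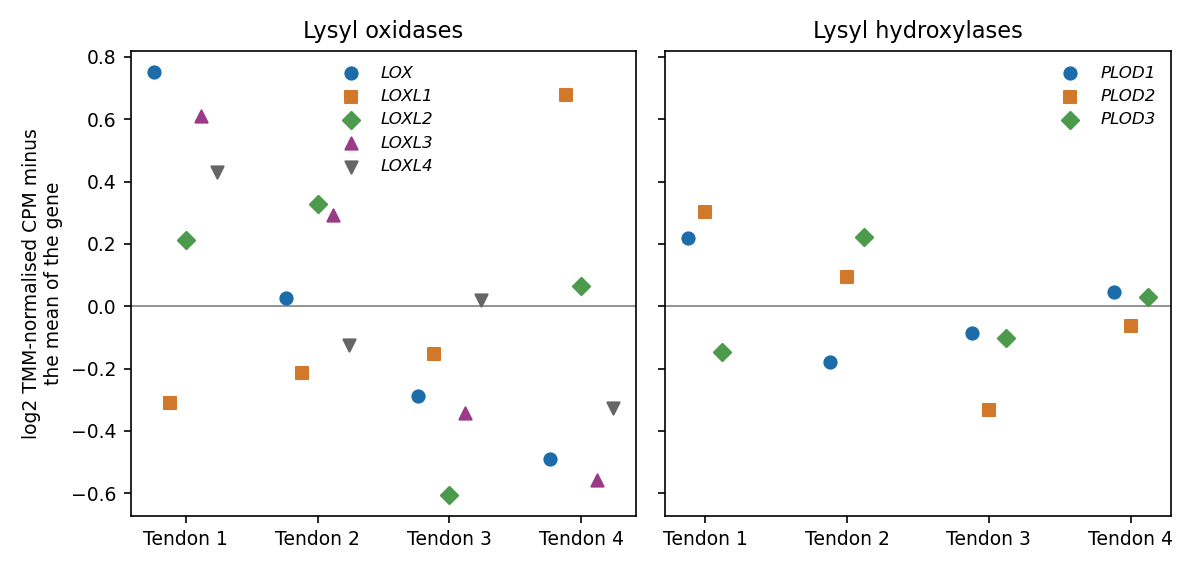
Log2 of TMM-normalised CPM minus the gene's own mean over 4 tendons, for the 5 lysyl oxidases (left) and the 3 lysyl hydroxylases (right) in each tendon. LOX, LOXL3 and LOXL4 are above 0 in tendon 1 and below it in tendon 4, LOXL1 shows the reverse, and LOXL2 is lowest in tendon 3.

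**Figure D4:**
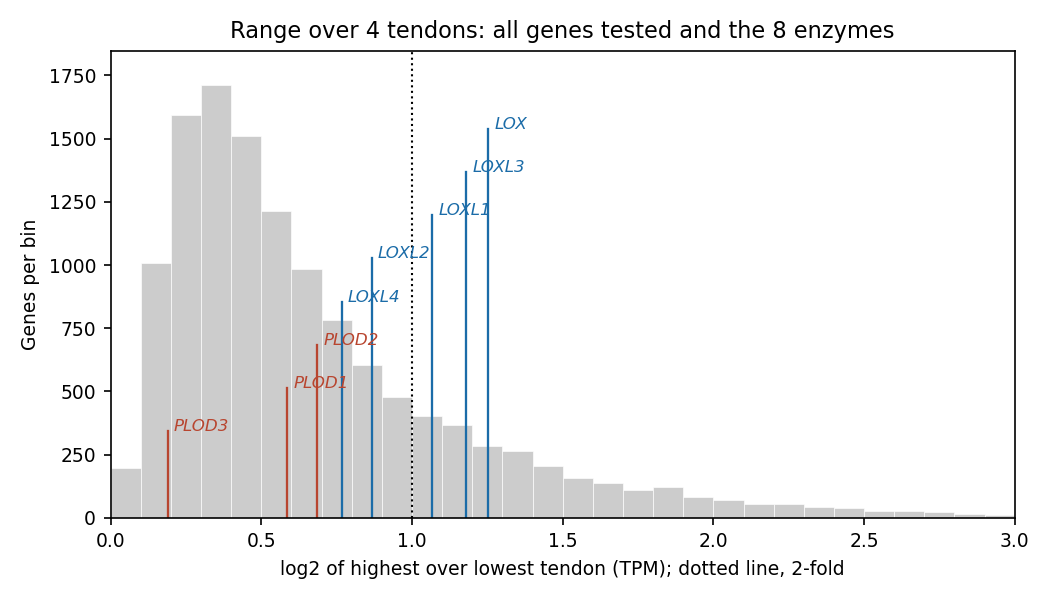
Number of genes (bars) by log2 of the highest over the lowest tendon in TPM, with the 8 enzymes as vertical lines whose heights only separate the names; blue marks oxidases, red hydroxylases and the dotted line 2-fold. LOX, LOXL3 and LOXL1 lie right of the line; 166 of 12744 genes lie beyond the axis.

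Markers of other cell types also differed between tendons. The summed level of 4 adipocyte markers was 213, 304, 446 and 716 TPM in tendons 1 to 4, with 4 of 4 highest in tendon 4. Macrophage markers summed to 67.5, 54.8, 133 and 178 TPM, with 6 of 6 highest in tendon 4, where LOXL1 was also highest. Endothelial markers summed to 150, 192, 262 and 263 TPM, and pericyte and smooth muscle markers to between 368 and 457 TPM. The muscle sum was lowest in tendon 1, where LOX was highest, and highest in tendon 2. Most of it came from ACTA1 and TNNI1. The fast fibre markers MYH2 (0.548, 0.922, 1.01 and 240 TPM) and TNNT3 (0.613, 0.968, 0.400 and 233 TPM) were high in tendon 4 alone, where LOXL1 and POSTN were also highest. TNNT3 did not pass the low count filter, so its values outside tendon 4 rest on low counts. Cartilage markers summed to between 78.1 and 125 TPM. No marker with an entry was at 0 in all tendons. The part of other cell types in the members' levels was not tested, and in whole tissue fewer cells of a type and less RNA per cell cannot be told apart.

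Fibrillar collagens, the main substrates of these enzymes, were more abundant than the enzymes in all 4 tendons. Of 11 fibrillar collagen genes, 10 had an entry, and their summed level was 34708, 21242, 10520 and 14847 TPM in tendons 1 to 4. LOX stood at 0.101, 0.0924, 0.196 and 0.120 times COL1A1, the pro-alpha1 chain of type I collagen, and between 0.0860 and 0.186 times COL1A2, the pro-alpha2 chain. Both ratios were highest in tendon 3, where type I collagen was lowest (3672 TPM for COL1A1, against 15218 in tendon 1). For every 100 TPM of fibrillar collagen there were 6.70, 6.91, 11.3 and 8.54 TPM of lysyl oxidases, and 1.77, 2.20, 4.14 and 3.48 TPM of lysyl hydroxylases. At least a 2-fold range was found for 6 of 10 collagen genes, with a median of 2.54-fold, against 3 of 8 and 1.76-fold for the enzymes and 20.9% and 1.44-fold for all genes tested. COL3A1, the type III chain, had 1120, 918, 1563 and 1996 TPM and was highest in tendon 4.

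Elastic fibre genes were covered in part, and ELN, the gene of the oxidase substrate elastin, had no entry. Of 15 symbols, 9 had an entry, led by MFAP4 at 1958 ± 802 TPM (SD, n = 4), a microfibril-associated glycoprotein, and MFAP5 at 385 ± 77.9 TPM. FBN1, the fibrillin of microfibrils, stood at 305 ± 38.4 TPM and EMILIN1 at 212 ± 26.9 TPM. FBLN5, a fibulin that binds elastin and LOXL1, had 18.3, 18.0, 18.2 and 37.8 TPM, so tendon 4 was the high one, as for LOXL1. In this list 2 of 9 genes were highest in tendon 4, 4 in tendon 3, 2 in tendon 1 and 1 in tendon 2. At least a 2-fold range was seen for 3 of 9, with a median of 1.83-fold, beside 20.9% and 1.44-fold over all genes tested.

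Partners of the hydroxylases in the endoplasmic reticulum had mean levels from 40.9 TPM (FKBP14) to 585 TPM (PPIB). Of 16 symbols, 11 had an entry, and 1 of them, P4HA3 at 2.06-fold, had at least a 2-fold range, beside 20.9% of all genes tested. The median range was 1.45-fold, near the 1.44-fold of all genes. PPIB, the prolyl isomerase cyclophilin B, led at 585 ± 65.5 TPM (SD, n = 4), followed by the prolyl 4-hydroxylase subunit P4HA1 at 332 ± 88.3 TPM and the prolyl 3-hydroxylase partner CRTAP at 184 ± 29.9 TPM. FKBP10 encodes the chaperone FKBP65, which lysyl hydroxylase 2 needs for its activity, and stood at 168 ± 19.7 TPM. PLOD2 was 1.83, 1.56, 1.52 and 1.58 times FKBP10 in tendons 1 to 4, a range of 1.20-fold and the narrowest of the 12 ratios. FKBP10 was the 92nd closest in pattern to PLOD2 of 7007 named genes whose mean reached 10 TPM. The collagen binding chaperone SERPINH1 and the subunit P4HB had no entry.

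Genes listed for activation of LOX and for propeptide removal, which include genes of procollagen processing, showed mixed patterns. BMP1, the protease that removes the propeptides of LOX and of procollagen, had 244, 152, 154 and 158 TPM. LOX was 6.28, 5.37, 4.68 and 4.06 times BMP1. FN1, the gene of fibronectin, stood at 1838 ± 245 TPM (SD, n = 4). POSTN encodes periostin, a matrix protein known to bring BMP1 to its substrates, and had 327, 282, 246 and 1312 TPM, with tendon 4 far above the others. PCOLCE2, an enhancer of procollagen C-propeptide removal, had 302, 192, 435 and 185 TPM. Of 10 symbols, 7 had an entry, 6 passed the low count filter and 4 of those 6 had at least a 2-fold range, beside 20.9% of all genes tested. ADAMTS14 did not pass, with 0.512 ± 0.359 TPM.

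Copper reaches the oxidases through a short chain of carriers, and all 7 listed genes had an entry. A 2-fold range was seen for 0 of 7, with a median of 1.33-fold, beside 20.9% and 1.44-fold over all genes tested. ATP7A, the Golgi pump that loads copper onto secreted oxidases, had 13.4, 9.37, 11.5 and 10.6 TPM, and the importer gene SLC31A1 had 11.8, 10.7, 10.1 and 12.4 TPM. ATOX1, the chaperone that hands copper to ATP7A, stood at 100.4 ± 12.4 TPM (SD, n = 4) and COX17, which serves mitochondria, at 199.7 ± 52.6 TPM. CCS, the chaperone of superoxide dismutase, had 25.2 ± 1.89 TPM, and the transporter gene SLC31A2 had 13.2 ± 1.98 TPM.

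Proteoglycans on the fibril surface had the highest summed TPM of the partner lists, 31571 on average against 20329 for fibrillar collagens. The order turned in CPM, with 34650.0 against 55573. Their 8 genes summed to 40189, 35097, 29975 and 21023 TPM in tendons 1 to 4, with the tendons in the same order as for LOX. The single genes did not all share that order: 3 were highest in tendon 1, 2 in tendon 2 and 3 in tendon 4 (ASPN, BGN and LUM). LUM stood in the reverse order, with 27.7, 39.0, 169 and 269 TPM. FMOD, fibromodulin, which binds collagen and is known to modulate its crosslinking by LOX, had 7860, 9278, 3808 and 3002 TPM. DCN (decorin) had 19666, 13584, 15151 and 9626 TPM, PRELP 6986 ± 2059 TPM (SD, n = 4) and ASPN 1682 ± 169 TPM. At least a 2-fold range was found for 5 of 8, beside 20.9% of all genes tested.

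Genes of hypoxia and TGF-beta signalling, pathways known to raise LOX and PLOD2 expression, had 14 of 16 symbols with an entry. Of these, 1 had at least a 2-fold range, beside 20.9% of all genes tested. This was EGLN3, the hypoxia-inducible prolyl hydroxylase of HIF, with 61.2, 30.8, 30.6 and 18.4 TPM. Tendon 1 was the highest for 10 of 14 in TPM, against 38.9% of genes tested, tendon 2 for 1, tendon 3 for 2 and tendon 4 for 1. That count was not made with TMM scaling, and the median range of the list was 1.35-fold. TGFB3 was highest in tendon 4 (69.5, 65.8, 50.1 and 99.8 TPM), and EPAS1 was lowest in tendon 1 (85.0, 90.8, 101 and 89.1 TPM). CTGF, a matricellular TGF-beta target, had 577, 383, 469 and 346 TPM. HIF1A, the hypoxia factor, had 255, 162, 206 and 155 TPM, TGFBR2 104 ± 13.9 TPM (SD, n = 4) and EPAS1 91.6 ± 6.98 TPM. TGFB1 and VHL had no entry.

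**Figure D5:**
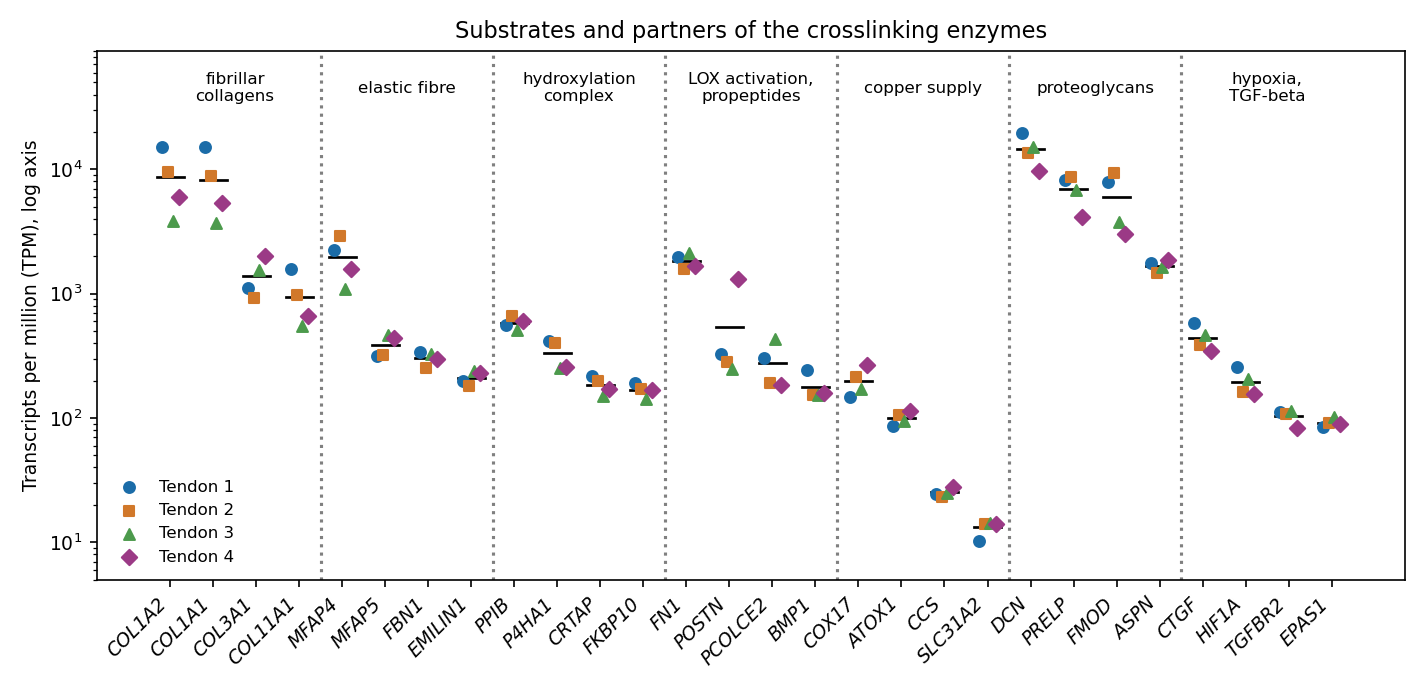
TPM on a log axis of up to 4 genes with the highest mean in each partner list (dotted lines part the lists); points are tendons 1 to 4 and bars are means of 4. Type I collagen and proteoglycan genes lie highest, POSTN stands at 1312 TPM in tendon 4 and at 246 to 327 TPM in the others, and the copper genes CCS and SLC31A2 have the lowest means of those shown.

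For the 3 members with at least a 2-fold range, all 7000 other named genes whose mean reached 10 TPM were ordered by distance to them. The genes nearest to LOX were TUFT1 (0.033), the homeobox gene HOXA9 (0.039), BAMBI, a TGF-beta pseudoreceptor (0.048), the stress transcription factor gene DDIT3 (0.057) and TUSC3, a subunit of oligosaccharyltransferase (0.057). The median distance to LOX was 0.472. TUFT1 had 22.4, 12.2, 10.5 and 9.33 TPM, and HOXA9 49.9, 26.0, 24.2 and 21.4 TPM. With TMM scaling 4 of these 5 were again among the nearest 5. Among the fixed pairs, LOXL3 was the 55th nearest to LOX of 7007 genes, BMP1 the 161st and LOXL4 the 208th, while LOXL1 was the 6576th.

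The genes nearest to LOXL1 were P4HA3, a prolyl 4-hydroxylase subunit (distance 0.017), the collagen IV gene COL4A1 (0.055), the laminin gene LAMB1 (0.057), the interferon gamma receptor gene IFNGR2 (0.069) and FBLN5 (0.069). P4HA3 had 41.4, 40.0, 45.7 and 82.5 TPM and COL4A1 had 247, 234, 292 and 508 TPM, both highest in tendon 4. The median distance to LOXL1 was 0.439, and 4 of the 5 stayed nearest with TMM scaling.

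The gene nearest to LOXL3 was MKX, the homeobox gene mohawk of tendon fibroblasts, at a distance of 0.051. MKX had 169, 117, 90.4 and 73.8 TPM, so LOXL3 and MKX stood in the same order over the 4 tendons. The other tenocyte markers did not share that order: TNMD had 158, 169, 31.7 and 187 TPM, and THBS4 had 7286, 7922, 5669 and 4721 TPM. MYBL1 (0.063), the collagen-binding integrin gene ITGA2 (0.069), ABI3BP, a matrix protein gene (0.073), and ZBTB16 (0.081) followed. ABI3BP was the most abundant of them, with 1709, 1054, 829 and 707 TPM. The median distance to LOXL3 was 0.468, and all 5 genes were again the nearest 5 with TMM scaling. With 4 tendons there are few possible patterns, so nearness describes these tendons only.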

How the data were processed

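Estimated counts per transcript, neither scaled for depth nor for length, were deposited with transcript lengths, 1 column per tendon. Per the submitters' processing notes, kallisto 0.42.4, bcl2fastq, FastQC and OryCun2.0 were used, with no role given. The use of strand, and any filter, is not given in the sources used here. Counts of 21589 transcripts were summed per gene; TPM used annotated lengths over all genes, and CPM did not. Rounded counts gave TMM factors and coefficients of variation, with an intercept alone (edgeR 4.0.16, R 4.3.3), and DESeq2 1.42.0 size factors. The coefficient and the range were also computed on simulated counts with coefficients set in advance. Only the coefficient was checked against those settings, within wide limits. The remaining steps ran in Python 3.11.15 with scipy 1.17.1, pandas 2.3.3 and numpy 2.4.6. The limit that a count of 3 sets lay between 0.0979 and 0.152 CPM.

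No design contrast existed. Named genes were the members, the genes of 14 planned ratios, up to 4 genes per partner list by mean TPM, and the 5 nearest to each member with at least a 2-fold range; others were named after their values were seen. The members and lists were chosen with earlier results of these data known. No pair of libraries agreed within counting noise. Alternatives were CPM, lengths less 200 bases (at least 100), a pseudocount of 1 TPM, other scalings, filters and thresholds, and each tendon left out. Places of fixed pairs and family levels per collagen were added after seeing the data. RefSeq (mOryCun1.1) held all 8 symbols and was used for nothing else.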

Additional observations from a re-analysis of the deposited data

Results flagged for a closer look

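Of 22 values examined for a tendon apart from the others (8 gene levels, 12 ratios and 2 family shares), 1 was past the 95% critical value of Dixon's ratio, against about 1.1 by chance. This was the TPM of LOXL1, high in tendon 4 (137 TPM against 65.2 to 74.7), with a ratio of 0.867. On the log2(TPM + 1) scale the ratio was 0.817 and did not pass.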

How the results depend on the processing

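All 12 ratios kept their side of 1 in CPM and with shortened lengths, and none could pass a significance threshold. The pseudocount and leaving out a tendon, which complete the 84 values, could not have changed a side. Every tendon already lay on the same side of 1, and a pseudocount is added to both genes. In CPM the mean share was 0.365% for oxidases and 0.0938% for hydroxylases, since CPM weights long transcripts. At a 1.5-fold threshold 7 of 8 members and 44.6% of genes passed, and at 4-fold 0 of 8 and 4.14%. With a mean of at least 10 CPM, 11.1% of genes had a 2-fold range. Leaving out 1 tendon gave 1 to 3 members and 13.4% to 18.3% of genes, the lowest without tendon 1. With log2(TPM + 1), 0 members had a tendon apart. Depth limited PLOD3 most, by the lowest count of 949. No paired analysis was possible because there was 1 group.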
